A study of Arabidopsis thaliana with 24 samples.

Results

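Seedlings of Arabidopsis thaliana that carried mutations in MSI2, MSI3 and NASP (labelled msi2-/- msi3-/- nasp-/-) were compared with wild type Col-0 seedlings at 12 days of age. The members are the 6 libraries of these groups, 3 per genotype, of 24 libraries in the series. They come from a table of 15 libraries of 5 genotypes, of which nasp (nasp-/-) and hag2 nasp (hag2-/- nasp-/-), with 3 libraries each, are used beside them. The remaining genotype, hag2 msi2 msi3, enters only the estimate of the spread and the filter that sets which genes were tested. All seedlings of that table grew on plates of Murashige and Skoog medium in 16 h days and 8 h nights at 22 °C, without any treatment, and whole seedlings gave the total RNA. Allele names are not among the labels. The labels do not say whether the replicates were grown apart, so each p-value measures the spread between these libraries, which may be technical.

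NASP is a chaperone that binds histone H3, and MSI2 and MSI3 are WD40-repeat proteins that bind histones. With HAG2, a type B acetyltransferase that acetylates newly made histone H4 before it enters chromatin, they form the NuB4 complex. New H3 and H4 pass from such complexes to assembly factors that place them on DNA during replication or transcription. Plants without assembly factors such as CAF-1 are known for DNA damage signalling and for altered meristems.

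Transcripts of the mutated genes were lowered and still present. Normalized read values of NASP (AT4G37210; chromosome 4, 17512254 to 17514723 in TAIR10.1) were 539, 478 and 519 in the wild type and 147, 128 and 143 in msi2 msi3 nasp and fell by 1.87 ± 0.14 on the log2 scale (value ± standard error of the fit; adjusted p = 9.26e-10). MSI3 (AT4G35050) went from 275, 302 and 289 to 83.3, 75.2 and 108, and MSI2 (AT2G16780) from 484, 462 and 471 to 215, 199 and 227. The groups were apart for each of these genes, and MSI2 kept the most, 45.3% of its wild type mean. HAG2, which is intact in these plants, rose by 0.74 ± 0.17, from 445, 403 and 381 to 701, 665 and 694. MSI1, another gene of the MSI family and a subunit of CAF-1 and Polycomb complexes, rose by 0.52 ± 0.07; MSI4 fell by 0.30 ± 0.05, and MSI5 stood at 116, 116 and 126 in the wild type and 100.3, 119 and 114 in the mutant, a difference that did not pass the test (adjusted p = 0.48).

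Of 24305 genes tested, 66.8% were called at an adjusted p below 0.05, 33.6% higher and 33.3% lower in msi2 msi3 nasp. A change of at least 2-fold was called for 11.9% of genes upward (2900) and 14.2% downward (3458), and the libraries of the groups did not overlap for 69.4%. The median log2 fold change of all genes was -0.001. With most genes called, a call says little by itself, so each group of genes below is given by its counts and its median beside these shares. Values are the authors' normalized values, which summed to between 19.58 and 20.45 M in the 3 mutant libraries and between 20.06 and 20.24 M in the wild type; the reads behind them are not known. Mutant replicate 3 had the largest sum and held the highest mutant value for 52.2% of the 8160 risen genes, against 30.2% for replicate 1 and 17.7% for replicate 2. Whole seedlings were used, so a smaller share of a cell type and less RNA per cell cannot be told apart. Changes are given on the log2(value + 1) scale, which understates those of low genes, and "rose" and "fell" are used of called genes.

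**Figure D1:**
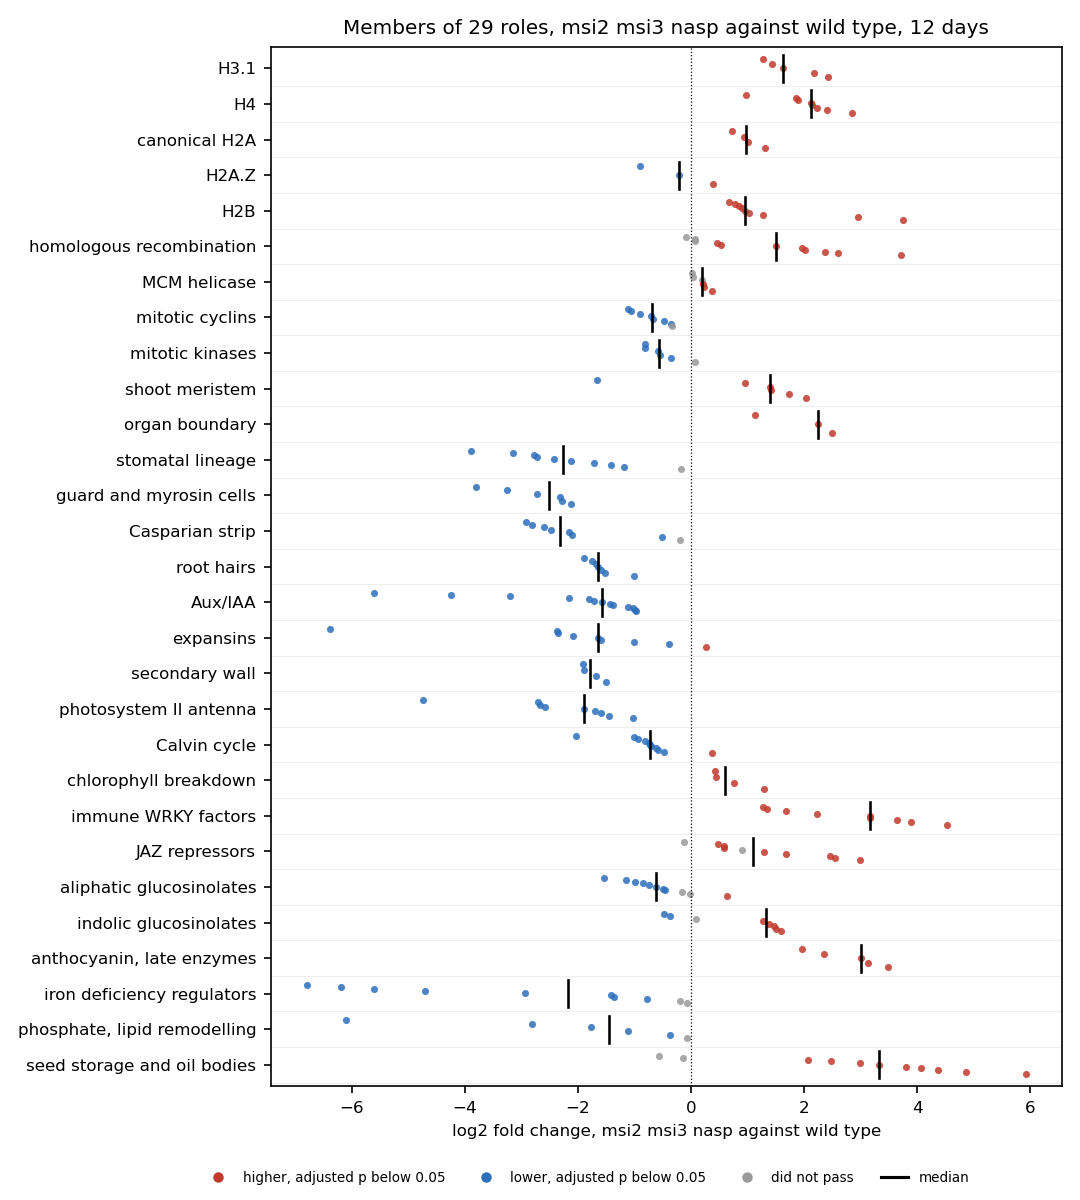
Log2 fold changes of the tested members of 29 roles, msi2 msi3 nasp against wild type at 12 days (x axis); each point is 1 gene, coloured by its call, and the black bars are medians. All members of the H3.1, H4, H2B and organ boundary roles lie above 0, and all members of the photosystem II antenna, Aux/IAA and guard and myrosin cell roles lie below it.

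Genes for the core histones were higher in the mutant across nearly every class, while the H2A.Z genes were split. Of 39 tested histone genes, 34 rose, 3 fell and 2 did not pass, with a median of 1.28. All 5 genes of the replication-coupled H3.1 rose (median 1.64), as did all 8 H4 genes (2.13), all 9 tested H2B genes (0.95), all 4 canonical H2A genes (0.98) and both genes of H2A.X, the variant phosphorylated at DNA breaks (1.46). The H3.1 gene AT3G27360 held 152, 169.6 and 195 in the wild type, 412, 354 and 394 in nasp and 941, 843 and 1004 in msi2 msi3 nasp, a rise by 2.43 ± 0.12 (adjusted p = 3.57e-12). Every library of nasp was above the wild type and every library of msi2 msi3 nasp above nasp.

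Among H2B genes the steepest rise was that of AT3G53650, from 82.6, 75.9 and 93.2 to 1157, 1087 and 1187, by 3.76 ± 0.11 (adjusted p = 9.33e-15). The stress-induced linker histone HIS1-3 held 398, 539 and 395 in the wild type and 6406, 6685 and 6736 in the mutant and rose by 3.91 ± 0.10 (adjusted p = 2.93e-15). Both genes stood more than 10-fold above the wild type in every mutant library. HIS1-3 was the 1 linker histone gene tested, as H1.1 and H1.2 were dropped because their symbols did not match the annotation. H2A.Z, the variant placed at gene starts and in stress-responsive genes, took another course. HTA11 fell by 0.90 ± 0.07, from 420, 386 and 407 to 227, 214 and 209, and HTA9 fell by 0.21 ± 0.09 (adjusted p = 0.0426), a call that ended under 7 alternatives, among them without mutant replicate 1 or 2 or wild type replicate 1 or 3, while HTA8 rose by 0.39 ± 0.14, a call that ended without mutant replicate 1 or 3 or wild type replicate 1. In the heterochromatic H2A.W class, HTA6 and HTA7 rose by 1.01 and 1.83, and HTA12 fell by 0.35 ± 0.10. The centromeric CENH3 gene HTR12 stood at 82.6, 79.9 and 68.3 in the wild type and 63.6, 48.8 and 74.3 in the mutant (adjusted p = 0.176), and the H3.3 gene AT4G40030 at 5112, 4857 and 4564 in the wild type and 4936, 4829.6 and 5232 in the mutant (adjusted p = 0.495); the other H3.3 genes, AT5G10980 and AT4G40040, rose by 2.23 and 1.26. Histone genes include near-identical copies, and how reads shared by copies were counted is not given in the sources used here. Of the 34 risen genes, 30 had their highest mutant value in replicate 3, and without that library 33 rose and 3 fell.

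**Figure D2:**
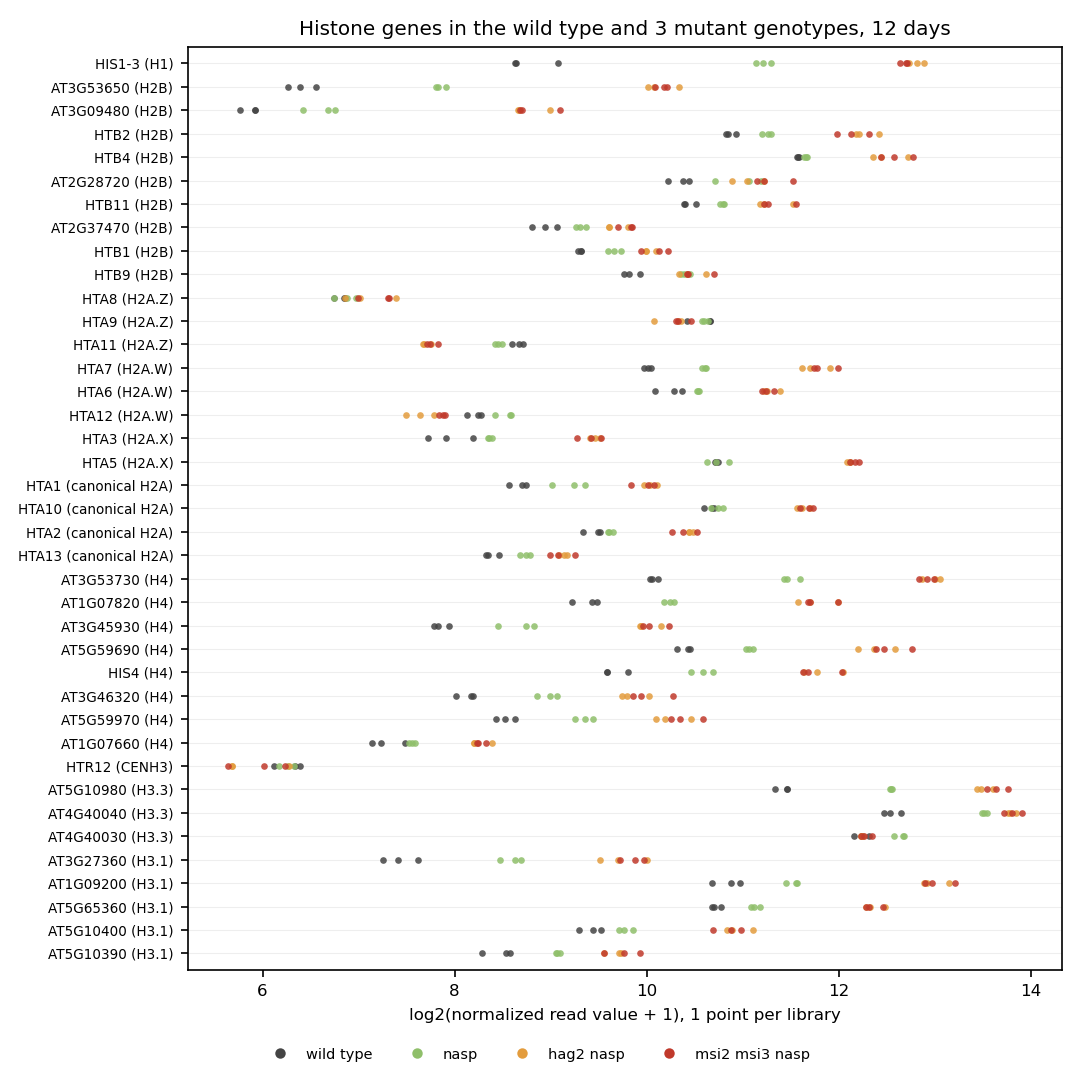
Normalized read values, as log2(value + 1), of each tested histone gene (y axis, with its class) in every library of the wild type, nasp, hag2 nasp and msi2 msi3 nasp at 12 days. The msi2 msi3 nasp points lie to the right of the wild type for all H4, H2B and H3.1 genes and lie to the left of the wild type for HTA11.

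Promoters of Arabidopsis histone genes often hold an octamer, CGCGGATC, known from work on their activity in dividing cells. In windows from 250 bases before to 50 bases after the annotated start (TAIR10.1), read on both strands, the octamer was found in 9 of 40 histone genes (22.5%) and in 0.138% of all 32546 windows. It was found in 3 of 5 H3.1 genes, 2 of 8 H4 genes and no H2B gene, and all tested genes of these classes rose. Stretches around it are shown for an H3.1, an H4 and a canonical H2A gene that rose, with the octamer in capitals.
AT1G09200 (chr1:2972397-2972444, minus strand): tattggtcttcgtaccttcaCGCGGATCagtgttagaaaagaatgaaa
AT5G59690 (chr5:24051383-24051430, plus strand): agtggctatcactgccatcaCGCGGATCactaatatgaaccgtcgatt
HTA10 (chr1:18926717-18926764, plus strand): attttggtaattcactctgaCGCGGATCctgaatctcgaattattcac
AT1G09200 rose by 2.18 ± 0.09, AT5G59690 by 2.14 ± 0.09 and HTA10 by 1.02 ± 0.06. A match is a description of these letters and does not show that a factor binds there.

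Genes for the carriers of histones took no common direction. Of 22 genes for other chaperones and nuclear acetyltransferases, 7 rose, 5 fell and 10 did not pass, with a median of 0.03. Over all genes 33.6% rose and 33.3% fell, so this list was called no more often than genes at large. Both CAF-1 subunit genes rose, FAS2 by 0.59 ± 0.14 and FAS1 by 0.25 ± 0.08, and so did ASF1A by 0.29 ± 0.09. In the NAP1 family, which carries H2A and H2B, NRP1 (AT1G74560) went from 1567, 1419 and 1548 to 2268, 2234 and 2295 (0.58 ± 0.06, adjusted p = 2.09e-07), NRP2 rose by 0.47, and NAP1;3 fell by 0.45 ± 0.06. No gene of the HIR complex, the replication-independent H3.3 assembly factor, passed the test (0 of 4 by limma, also at an unadjusted p below 0.05 and with voom weights). The acetyltransferase genes HAF1, HAG1 and HAC1 fell by 0.45, 0.30 and 0.25.

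DNA damage response genes rose more often than they fell, some of them steeply. The transcription factor SOG1 is activated in plants by the kinases ATM and ATR and switches on repair and cell cycle arrest genes. Of 29 tested genes, 18 rose, 13 of them at least 2-fold, 4 fell and 7 did not pass (median 0.46). ATR and ATM fell by 0.93 and 0.63, and SOG1 itself rose by 0.30 ± 0.08. NAC044, a NAC factor that relays the signal to the G2 arrest, held 16.1, 24.4 and 22.8 in the wild type and 464, 383 and 459.7 in the mutant, a rise by 4.32 ± 0.21 (adjusted p = 5.72e-12), with 17.2, 15.6 and 12.5 in nasp. Its relative NAC085 was below 1.1 in each wild type library, listed at 0 in nasp, and at 112, 84.6 and 99.1 in the mutant (adjusted p = 7.55e-12). Thus both relay genes were low in the wild type and nasp and high in all 3 mutant libraries.

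The CDK inhibitor gene SMR7 rose by 5.06 ± 0.18 (adjusted p = 1.49e-13), from 18.1, 9.72 and 12.9 to 490.4, 428 and 495, and SMR4 by 1.71 ± 0.28; SMR5 was listed at 0 in all 6 libraries. Of 11 homologous recombination genes 8 rose, led by GMI1 (113, 142 and 97.04 to 1574, 1629.7 and 1428) and XRI1 (193, 211 and 190.2 to 1202, 1171 and 1247), with log2 changes of 3.72 and 2.601. BRCA1, a repair mediator, rose by 1.505 ± 0.10, whereas the end-binding genes MRE11 and RAD50 did not pass (0.07 and -0.09). Outside recombination, PARP2 rose by 2.59 ± 0.08 and TSO2, a ribonucleotide reductase gene, by 1.43 ± 0.06. For end joining, KU70 fell by 0.20, and KU80 and LIG4 did not pass. CYCB1;1, the cyclin gene that SOG1 induces in damaged cells, went from 98.7, 111 and 118 to 393, 324 and 397 (1.75 ± 0.10).

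SOG1 recognises a palindrome of CTT, 7 bases of any kind and AAG. This pattern was found, on either strand, in the window of 26.7% of the DNA damage genes (8 of 30), of 38.5% of those that rose at least 2-fold (5 of 13) and of 11.7% of all windows. Windows of NAC044, SMR7 and PARP2 are shown because these genes stand for the relay, the cell cycle arrest and the repair arms; capitals mark the pattern, and their rises are those given above.
NAC044 (chr3:228990-229042, plus strand): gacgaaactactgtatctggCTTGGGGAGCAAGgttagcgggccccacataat
SMR7 (chr3:10231578-10231630, minus strand): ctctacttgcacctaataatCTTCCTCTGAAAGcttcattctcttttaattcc
PARP2 (chr4:1049650-1049702, plus strand): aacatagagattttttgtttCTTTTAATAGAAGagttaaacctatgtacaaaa
The pattern began 65, 43 and 96 bases before the annotated starts of NAC044, SMR7 and PARP2. SMR7 held a second match after its start, and GMI1 and XRI1, which also rose, held none in the window.

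Most replication genes that passed were higher, and most genes of mitosis were lower. Of 16 replication genes 9 rose and 2 fell (median 0.21), and of 18 mitosis and cytokinesis genes none rose and 16 fell (median -0.69; CYCB1;3 and CDKB1;1 did not pass). With voom weights 10 replication genes were called, 1 of them lower. The fall of ORC1A ended with those weights, with quantile normalization and with only the 6 libraries compared. It also ended without mutant replicate 2 or 3 or wild type replicate 1 or 3. The rise of MCM4 ended without mutant replicate 1 or wild type replicate 2, and that of MCM2 with quantile normalization. RNR1, the large subunit of ribonucleotide reductase, rose by 0.77 ± 0.07, the clamp gene PCNA2 by 0.56 ± 0.10 and the helicase gene MCM3 by 0.37 ± 0.08. CDT1A, an origin licensing gene, fell by 0.64 ± 0.10. In mitosis, CYCB1;2 went from 184, 185 and 208 to 95.9, 79.98 and 89.2 and fell by 1.11 ± 0.10 (adjusted p = 1.95e-08), with every mutant library below every wild type library and nasp at 219, 249 and 229.9. The cell plate syntaxin gene KN fell by 0.78 ± 0.10, the spindle gene TPX2 (AT1G03780) by 0.91 ± 0.08 and the Aurora kinase gene AUR1 by 0.80 ± 0.10. CYCB1;1 was thus the 1 B-type cyclin gene among those listed that was higher in the mutant.

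Most shoot meristem and organ boundary genes were higher, and most genes of the stomatal lineage and of guard and myrosin cells were far lower. Of 6 meristem genes 5 rose (median 1.41): the homeobox genes KNAT2, STM, KNAT6 and KNAT1 rose by 2.04, 1.42, 1.396 and 0.95. WUS, which keeps the stem cells, was at 0 in every wild type library and at 2.85, 0.901 and 3.97 in the mutant. CLV1, the receptor kinase that limits the stem cell pool, fell by 1.65 ± 0.09, from 1575, 1462 and 1517 to 517, 499 and 435. All 3 boundary genes rose. CUC3 went from 9.08, 17.9 and 9.90 to 56.8, 60.4 and 62.4 and CUC1 from 8.07, 12.7 and 10.9 to 96.4, 49.6 and 53.5 (2.25 ± 0.28 and 2.500 ± 0.32); the rise of CUC2 by 1.14 did not hold without mutant replicate 1 or wild type replicate 1 or 3. Of 8 leaf genes, TCP4, which promotes leaf cell maturation, fell by 1.93 ± 0.06, GIF1 by 0.75 and REV by 0.27, AS2 rose by 1.195 ± 0.19, and 4 did not pass.

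In the stomatal lineage 9 of 10 genes fell (median -2.27), and in mature guard and myrosin cells all 6 did (-2.52). The receptor-like gene TMM went from 295, 283 and 302 to 36.1, 28.2 and 32.7 and fell by 3.15 ± 0.14 (adjusted p = 1.56e-12), and nasp stood at 363, 348 and 359. SDD1, the protease that limits stomatal density, fell by 3.89 ± 0.18, the peptide gene EPF2 by 2.78 ± 0.29, the master gene SPCH by 1.71 ± 0.17, and FMA, which acts last, fell by 2.42 ± 0.11. MUTE, which acts between SPCH and FMA, stood at 19.1, 17.1 and 15.8 in the wild type and 18.1, 16.04 and 11.9 in the mutant (adjusted p = 0.498), so its groups overlapped. KAT1, a guard cell potassium channel gene, went from 823, 1117 and 1001 to 136, 158 and 148. The myrosinase gene TGG1, at 69333, 65719.8 and 64365 in the wild type, stood at 6104, 7822 and 7075 in the mutant and fell by 3.25 ± 0.10 (adjusted p = 1.04e-14).

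**Figure D3:**
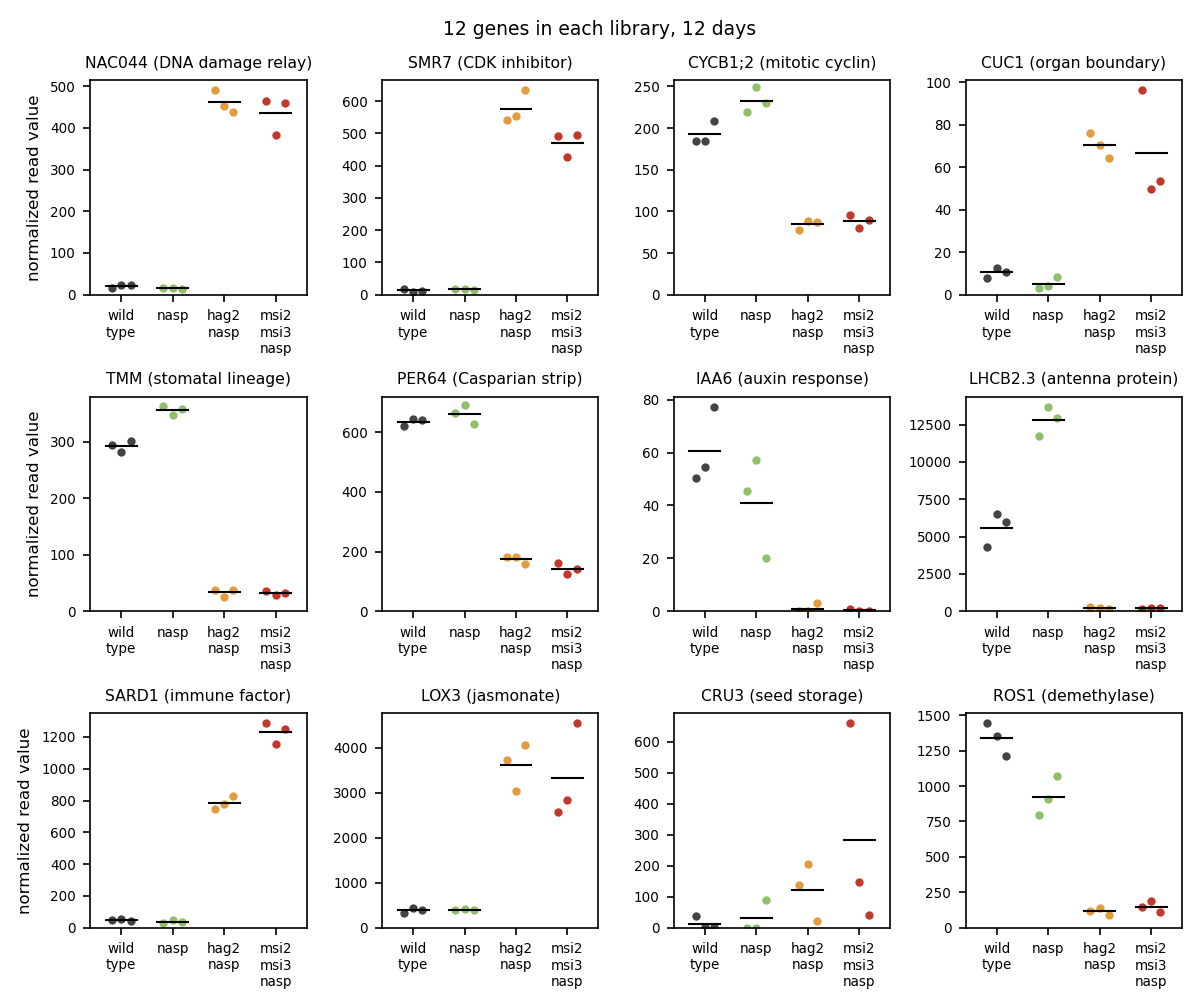
Normalized read values (y axes, linear, each from 0) of 12 genes in each library of the wild type, nasp, hag2 nasp and msi2 msi3 nasp at 12 days; points are libraries and black bars are means of 3. In the msi2 msi3 nasp libraries NAC044, SMR7, CUC1, SARD1 and LOX3 lie above all wild type points, and CYCB1;2, TMM, PER64, IAA6, LHCB2.3 and ROS1 below all of them; CRU3 is spread from 42.3 to 659.8 in the mutant.

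Genes of differentiated root cell types were lower as well. Of 8 Casparian strip genes, which build the lignin seal of the endodermis, 7 fell (median -2.31), and all 7 root hair genes fell (-1.65). PER64, a peroxidase that makes the lignin of the strip, held 620.5, 644 and 640 in the wild type, 664, 691 and 626 in nasp and 160.5, 126 and 142 in the mutant and fell by 2.15 ± 0.09 (adjusted p = 1.28e-12). Every mutant library was below every library of the wild type and nasp. MYB36, the regulator of this set, fell by 0.50 ± 0.12. The root hair regulator RSL4 fell by 1.69 ± 0.17 and the hair wall protein gene PRP3 by 1.897 ± 0.07. In the root tip, PLT1, which patterns the stem cell niche, went from 31.2, 34.2 and 40.6 to 2.80, 3.75 and 6.95, and the root cap gene SMB from 41.3, 25.8 and 29.7 to 1.85, 0.881 and 7.95. WOX5, the marker of the quiescent centre, ran the other way, from 18.1, 23.4 and 21.8 to 45.5, 37.5 and 60.5 (1.12 ± 0.24), and SCR rose by 0.31.

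Most of the listed growth hormone and cell wall genes fell (24 of 32 and 15 of 16). All 13 Aux/IAA genes, early targets of auxin, fell (median -1.57), IAA29 from 172, 109 and 109 to 6.64, 2.74 and 9.92 and IAA19 from 180.3, 143 and 184 to 18.01, 24.7 and 11.9 (log2 changes of -4.24 and -3.198). Of 9 type A ARR genes, targets of cytokinin, 6 fell, led by ARR3 (a log2 change of -3.93). The brassinosteroid synthesis genes DWF4, BR6OX1 and CPD fell, with log2 changes of -1.38, -2.12 and -1.001, and ROT3 and BR6OX2 rose by 0.60 and 0.34. For gibberellin, the synthesis gene GA3OX1 fell by 2.21 ± 0.18 and the receptor genes GID1B and GID1A rose by 1.42 and 1.12. Of 9 expansins, which loosen walls, 8 fell (median -1.64), EXPA3 from 2630.1, 2299 and 2259.9 to 412, 497 and 479.5. Of the 19 tested genes named EXPA, 11 fell, 3 rose and 5 did not pass (median -1.01). All 3 cellulose synthase genes of primary walls fell (median -0.96), as did all 4 secondary wall genes of vessels and fibres (-1.78), CESA8 by 1.91 ± 0.13. Among the small auxin-up RNA genes named SAUR, 46 of 72 fell and 11 rose (median -1.299).

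Photosynthesis genes fell by amounts that differed between their roles. Of 62 tested genes 55 fell and 5 rose (median -1.11). The median was -1.89 for the 9 photosystem II antenna genes, -1.58 for the 4 of photosystem I, -1.21 for 22 photosystem and electron transport genes and -0.72 for 11 Calvin cycle genes. LHCB2.3 stood at 4272, 6487 and 5956 in the wild type, 179, 223 and 217 in msi2 msi3 nasp and 11758, 13707 and 12948 in nasp, so the mutant libraries were the lowest and those of nasp the highest. It fell by 4.73 ± 0.16 against the wild type (adjusted p = 4.49e-14). Reads of the LHCB1 genes, which are near-identical copies, may be shared; LHCB1.5 was listed at 0 in all 6 libraries.

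The Rubisco small subunit genes fell by between 0.74 (RBCS1B) and 2.04 (RBCS3B), and FBA1, a Calvin cycle aldolase, rose by 0.37 ± 0.08. In chlorophyll synthesis PORA, the reductase of dark-grown seedlings, fell by 2.27 ± 0.24 and CHLM by 1.47 ± 0.06. HEMA1, at the head of the pathway, and GUN4 did not pass (-0.12 and 0.12). Without wild type replicate 1 HEMA1 passed as lower, at -0.25 (adjusted p = 0.0238). GLK2 and GLK1, the factors that switch on this set, fell by 1.396 and 0.69. All 4 chlorophyll breakdown genes rose, with SGR1 going from 359, 422 and 394 to 1047, 918 and 932 (1.301 ± 0.11).

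Immune genes of the salicylic acid pathway rose from the signalling genes to the outputs. Of 36 genes 33 rose and none fell (median 2.18; NPR1, NPR4 and SNC1 did not pass). The synthesis gene ICS1 went from 219.6, 244 and 262 to 849, 946 and 857 (1.87 ± 0.08). Another synthesis gene, PBS3, went from 35.3, 51.0 and 44.6 to 554, 462 and 611 (3.61 ± 0.18). SARD1, a factor that switches on ICS1, held 47.3, 54.2 and 39.6 in the wild type and 1288, 1158 and 1249 in the mutant and rose by 4.69 ± 0.17 (adjusted p = 9.76e-14). The groups were apart for all 3 genes. The lipase-like genes EDS1, PAD4 and SAG101 rose by 1.41, 1.15 and 1.96 and the helper receptor gene ADR1 by 2.36. For N-hydroxypipecolate, the mobile signal of systemic resistance, ALD1 rose by 2.58 ± 0.32 and FMO1 by 2.43 ± 0.21. The breakdown enzyme DMR6 rose too, by 2.07 ± 0.11. Among the outputs, all 3 pathogenesis-related genes (PR1, PR2 and PR5) rose, by between 2.59 and 8.71 (median 6.04). All 9 listed WRKY factors rose, with WRKY46 at 4.53 the highest and WRKY70 at 1.28 the lowest, and of 67 WRKY genes in the family 42 rose and 9 fell (median 0.82). The W-box, TTGACC or TTGACT, was found in 33.3% of the windows of the listed immune genes and in 31.8% of all windows.

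Jasmonate and ethylene defence genes rose to a smaller median (1.14; 27 of 32 rose, none fell), and here 1 mutant library was most often the highest. All 10 synthesis genes rose (median 0.86), and LOX3 went from 336, 439.9 and 386 to 2586, 2846 and 4566 (3.06 ± 0.15). JAZ10, a repressor induced by the hormone, went from 52.4, 56.5 and 62.4 to 271, 223 and 632. Mutant replicate 3 held the highest mutant value in 24 of the 27 risen genes (88.9%, beside 52.2% over all risen genes). Without that library 26 genes rose, the catabolic gene CYP94B3 no longer passed, JAZ3 and VSP2 were called lower, and the list median was 0.89. MYC2, the main factor of this response, was listed at 0 in all 6 libraries, although seedlings are known to use it, so a value of 0 can be a failed estimate. In the ethylene branch the defensin gene PDF1.2 rose by 3.495 ± 0.30 and the chitin-binding PR4 by 3.02 ± 0.21, and the basic chitinase gene CHI-B did not pass (-0.06).

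Secondary metabolism was split. Of 11 aliphatic glucosinolate genes, made from methionine, 8 fell and 1 rose (median -0.61), and of 8 indolic genes, made from tryptophan, 5 rose and 2 fell (1.32). The aliphatic regulator MYB29 went from 444, 398 and 475 to 134, 185 and 135 (a log2 change of -1.54) and the indolic regulator MYB51 from 204, 269 and 232 to 666, 592 and 683 (1.46 ± 0.13). Exceptions were the aliphatic SOT17, which rose by 0.64, and the indolic MYB34 and CYP79B3, which fell by 0.38 and 0.48; the call of CYP79B3 ended without mutant replicate 1. The camalexin genes CYP71A13 and PAD3 rose by 2.62 and 2.13. All 5 late anthocyanin enzymes rose (median 3.01). DFR, the first of these enzymes, went from 74.7, 214 and 108 to 1134, 1656 and 1304, and its regulator PAP1 (AT1G56650) from 29.3, 134 and 55.4 to 548, 598 and 567 (3.22 ± 0.37). The flavonol regulator MYB12 fell by 0.68 ± 0.13, and the flavonol synthase gene FLS1 did not pass (-0.15) except without wild type replicate 1, where it was lower (-0.30, adjusted p = 0.0494).

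Iron genes split between uptake and storage. Of 10 regulators of the deficiency response 8 fell (median -2.17), and none of the ferritin storage genes fell (3 of 4 rose). FRO2, the root ferric reductase, went from 306, 327 and 307 to 6.61, 7.54 and 8.92 and IRT1, the root iron transporter, from 918, 834 and 848 to 19.5, 34.7 and 78.4 (log2 changes of -5.19 and -4.49). BHLH100, an iron-deficiency factor, held 236, 248 and 221 in the wild type and 0, 0.922 and 3.97 in the mutant. The proton pump gene AHA2 did not pass (-0.06). FER1 went from 2029.8, 2346 and 1837 to 7392, 5358 and 6275 (1.61 ± 0.14), and YSL1, which moves iron chelates in shoots, rose by 2.68 ± 0.12. The responses of root and shoot genes cannot be told apart from the share of roots in a seedling, and the root markers given above were lower too.

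Phosphate starvation genes fell in 15 of 21 cases and rose in 4 (median -1.297). The lipid remodelling gene MGD2 went from 273, 329.7 and 430.1 to 39.7, 56.8 and 47.5 (a log2 change of -2.81), and SPX3, a sensor of phosphate state, from 83.8, 192 and 241 to 15.1, 24.7 and 10.9. PHO2, which removes phosphate transporters and is itself repressed in starvation, rose by 1.06 ± 0.10. RNS1 and PAP17, a ribonuclease and an acid phosphatase that respond to stress as well, rose by 2.35 and 0.87. Sulfate genes did not move together: SULTR1;1, a root transporter, went from 56.4, 56.7 and 82.3 to 2.84, 2.82 and 2.97, while the sulfate reduction genes APR3 and APR2 rose by 1.403 and 1.12. The nitrate transporter NRT2.1 rose by 3.04 ± 0.25 and the nitrate reductase NIA1 fell by 0.89 ± 0.11.

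Among stress genes, all 5 mitochondrial retrograde genes rose, OM66 from 161, 213 and 176 to 1563, 1409 and 1678 (3.08 ± 0.12), and the glutathione transferase genes GSTF7, GSTF6 and GSTF2 rose by 3.83, 3.81 and 3.75. In the endoplasmic reticulum 10 of 11 genes rose (median 0.49). The chaperone gene BIP3, induced by unfolded proteins, went from 3.04, 14.7 and 5.94 to 284, 286 and 269, while BIP1 and BIP2 rose by 0.49 and 0.28. Of 8 cytosolic heat shock genes 7 rose, HSP90.1 by 2.43 ± 0.09. Abscisic acid genes rose in 7 of 9 cases and cold genes fell in 5 of 7. RD29B rose by 1.81 ± 0.33, and RAB18 (AT5G66400), also a target of abscisic acid, fell by 1.22 ± 0.22. KIN2, a cold gene, fell by 1.84 ± 0.18. Of 6 dark-inducible genes 3 rose, 1 fell and 2 did not pass (median 0.96), and the steepest, BGLU30, went from 9.07, 7.55 and 13.9 to 199, 182 and 361. The 1 that fell, DIN10 (-0.36), did not pass without mutant replicate 2 or wild type replicate 3. Of 9 nucleolar genes 8 rose (median 0.61), with FIB2 at 0.79.

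Seed genes, which a 12-day seedling should hold at low levels, were higher in the mutant and uneven between its libraries. Of 16 tested genes 12 rose and none fell (median 3.15). The albumin gene SESA1 was even, at 93.8, 100 and 95.1 in the mutant and at 3.02 or less in the wild type (adjusted p = 6.94e-10). The globulin gene CRA1 stood at 1278, 234 and 87.8 in the mutant and 46.2, 10.96 and 8.87 in the wild type, and CRU3 at 659.8, 148 and 42.3 in the mutant and 37.2, 1.31 and 0.956 in the wild type; replicate 1 was the highest in both groups. Late embryogenesis genes followed another library: EM1, at 0 in every wild type library, held 15.8, 67.8 and 19.8 and EM6 32.2, 52.3 and 20.8 in the mutant, with replicate 2 the highest. Without mutant replicate 1, 10 genes rose, and SESA2 and SESA3 did not pass. Without wild type replicate 2 or 3, 10 genes rose as well. With voom weights, which weight each value by its expected precision, 9 genes were called in place of 12, and 6 of the 11 storage and oil body genes in place of 9. CRU3 changed by 4.87 (adjusted p = 0.00577), by 3.85 without that library, and not past the threshold with voom weights (adjusted p = 0.0514). ABI3, a master gene of seed maturation, rose from 2.01 or less to 14.3, 9.38 and 8.91, LEC2 and FUS3 did not pass (-0.02 and -0.84), and LEC1 was too low to test.

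Of 7 floral organ identity genes 4 rose and none fell (median 0.98), counts that depended on single libraries. SEP3 went from 85.8, 248 and 201 to 489, 448 and 464 and AP3 from 7.07, 14.8 and 12.9 to 47.6, 40.5 and 34.6 (1.51 ± 0.34 and 1.78 ± 0.29), whereas AG and SHP1 did not pass (-0.75 and -0.62). The rise of PI, by 1.005, ended without mutant replicate 1 or 3 or wild type replicate 2 (adjusted p of up to 0.163). AG passed as lower without wild type replicate 1 (-1.49, adjusted p = 0.0209). SHP1 passed as lower without wild type replicate 3 (-0.80, adjusted p = 0.038), without the variance trend, or with a pseudocount of 5. The flowering repressors MAF4 and MAF5 rose by 2.04 and 1.98 and the florigen gene FT fell from 24.1, 9.76 and 11.9 to 2.85, 2.83 and 1.98. FLC did not pass (0.53). The anther genes AMS and TDF1 did not pass either, and 3 others were too low to test.

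Of 25 silencing genes, 12 fell and 5 rose (median -0.21). ROS1, a DNA demethylase whose expression is known to follow DNA methylation activity, went from 1448, 1356 and 1213 to 146, 188 and 109 and fell by 3.202 ± 0.17 (adjusted p = 1.71e-11), with 795, 910.1 and 1069.6 in nasp. The mutant libraries lay below nasp, and nasp below the wild type. CMT2, a methyltransferase of heterochromatin, fell by 1.38 ± 0.09, CMT3 by 0.48 ± 0.07, and the small RNA pathway genes AGO4, DCL3 and NRPE1 by 0.80, 0.76 and 0.75. MET1, DRM2 and RDR2 did not pass, and DDM1, a remodeller needed for methylation of heterochromatin, rose by 0.30 ± 0.09, a call that ended without mutant replicate 1 (adjusted p = 0.0521). In the Polycomb set the methyltransferase genes CLF and SWN changed by -0.45 and 0.38, and the demethylase gene REF6 fell by 0.63 ± 0.08. Of 14 clock genes, 9 fell and 2 rose (median -0.31), with CCA1 at 216, 451 and 387 in the wild type and 170, 143 and 152 in the mutant, while its partner LHY rose by 1.27 ± 0.27. The hour of harvest is not among the labels.

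The comparison with nasp, which carries 1 of the 3 mutated genes, gave about as many calls as that with the wild type. Of 24305 genes 66.9% were called, 33.6% higher and 33.3% lower in msi2 msi3 nasp. The histone genes held a median of 0.94 against nasp and 1.28 against the wild type, and the DNA damage genes 0.41 and 0.46. These comparisons share the msi2 msi3 nasp libraries, so the numbers are set side by side and were not tested against each other. Whether msi2 and msi3 act differently with and without nasp cannot be tested, because no 12-day library of msi2 msi3 alone is among the labels.

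Against hag2 nasp, the other combination with nasp, far fewer genes were called. Of 24305 genes 6.33% passed, 3.26% higher and 3.07% lower in msi2 msi3 nasp. No gene of the histone, DNA damage or chaperone lists was among them (0 of 39, 0 of 29 and 0 of 22, by limma). At an unadjusted p below 0.05, 2 histone genes, 7 DNA damage genes and 1 chaperone gene differed, beside 4724 of all 24305 genes. With voom weights 0, 1 and 0 genes of these lists were called. A p that misses the threshold does not show that the genotypes act alike; for NAC044 the log2 difference was -0.09 ± 0.21.

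**Figure D4:**
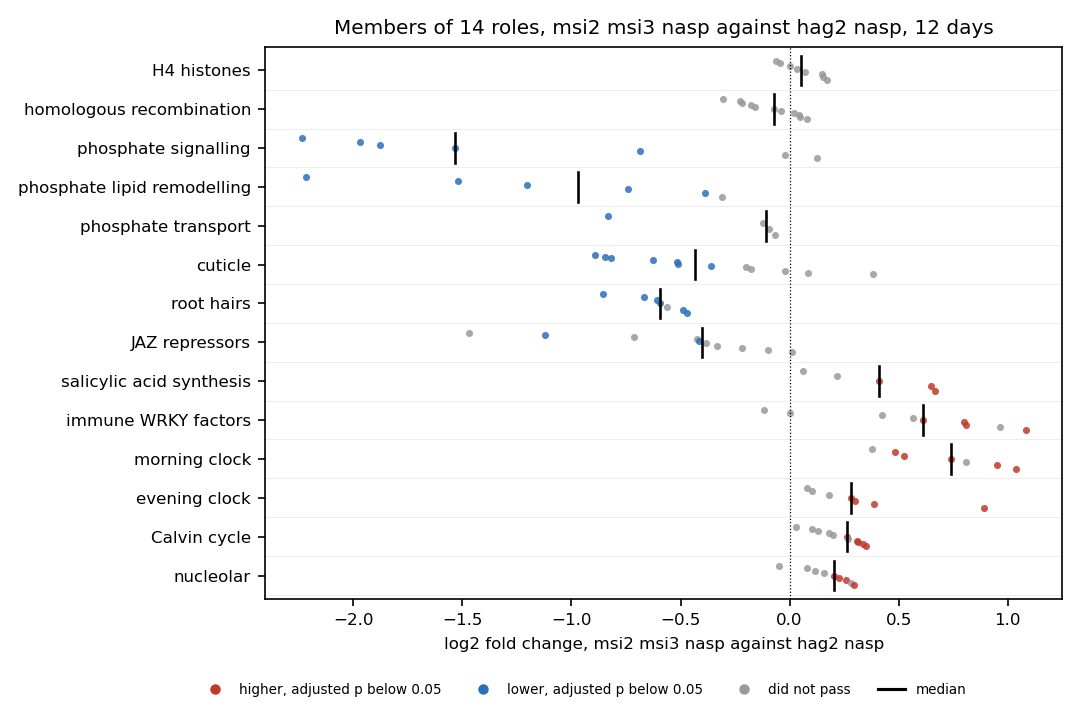
Log2 fold changes of the tested members of 14 roles, msi2 msi3 nasp against hag2 nasp at 12 days (x axis); each point is 1 gene, coloured by its call, and black bars are medians. Called phosphate signalling, cuticle and root hair genes lie below 0, and called clock, immune and Calvin cycle genes above it.

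Phosphate starvation genes were lower in msi2 msi3 nasp than in hag2 nasp. Of 21 genes 13 were lower in msi2 msi3 nasp and none higher, with a median of -0.73. MGD2 held 228, 199 and 249 in hag2 nasp, and it was lower in msi2 msi3 nasp by 2.21 ± 0.16 (adjusted p = 2.84e-07). SPX3 stood at 91.3, 53.9 and 101 in hag2 nasp and was lower by 2.24 ± 0.33 in msi2 msi3 nasp (adjusted p = 4.45e-04). The phosphatase gene PEPC1 held 251, 697 and 728 in the wild type, 1.80, 10.5 and 6.94 in msi2 msi3 nasp and 100.3, 40.4 and 79.3 in hag2 nasp. For all 3 genes the msi2 msi3 nasp libraries were below those of hag2 nasp and of the wild type. The hag2 nasp libraries were below the wild type for MGD2 and PEPC1 and overlapped it for SPX3. The transporter genes PHT1;1, PHO1 and PHO1;H1 did not pass.

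Root hair genes were lower in 6 of 7 cases, PRP3 at 1239, 1069.6 and 1105 in hag2 nasp and by 0.61 ± 0.07 lower in msi2 msi3 nasp (adjusted p = 3.04e-05). Of 12 cuticle genes 7 were lower and none higher, CER3 by 0.85 ± 0.07, CER6 by 0.51 ± 0.08 and KCS1 by 0.89 ± 0.08. Against the wild type 5 cuticle genes rose, 5 fell and 2 did not pass (median 0.10), CER3 and CER6 among those that rose, by 1.37 and 0.98. Of the suberin genes KCS2 was lower by 1.02 ± 0.13. The cytokinin target ARR3 was lower by 1.99 ± 0.30, the stomatal gene SDD1 by 1.08 ± 0.18 (not past the threshold with only the 6 libraries compared) and the nitrate reductase NIA1 by 0.75 ± 0.11. Among jasmonate and ethylene genes 6 of 32 were lower and none higher (14 called, all lower, with voom weights), JAZ10 by 1.12 ± 0.27 (adjusted p = 0.0168), with 712, 579 and 960.3 in hag2 nasp. That call ended without msi2 msi3 nasp replicate 1 or 2 or hag2 nasp replicate 3 (adjusted p of up to 0.0948). It ended as well without the variance trend and with only the 6 libraries compared.

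Salicylic acid genes went the other way, with 13 of 36 higher and none lower. SARD1 held 749.6, 780.2 and 828 in hag2 nasp and was higher by 0.65 ± 0.17 (adjusted p = 0.0252), with no overlap between the groups. The call ended without any 1 of the 3 msi2 msi3 nasp libraries or without hag2 nasp replicate 1 or 2 (adjusted p of up to 0.0902). It ended without the variance trend too. Higher too were WRKY54 by 1.08 ± 0.19, PR5 by 0.78 ± 0.16 and ICS1 by 0.41 ± 0.08. Clock genes were higher in 9 of 14 cases and lower in none. CCA1 stood at 73.3, 73.3 and 77.3 in hag2 nasp, below every library of the wild type, nasp and msi2 msi3 nasp, and was higher in msi2 msi3 nasp by 1.04 ± 0.19 (adjusted p = 0.00239). Of 62 photosynthesis genes 11 were higher, among them LHCB1.1 by 1.03 ± 0.11, and of 9 nucleolar genes 4 were higher, NUC1 by 0.29 ± 0.06. Without hag2 nasp replicate 1 the count of called genes was 965 and without msi2 msi3 nasp replicate 2 it was 911, in place of 1539.

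AT3G01345, a gene of unstated function, was the called gene with the largest difference from hag2 nasp. It held 3234, 3250.4 and 3232 in msi2 msi3 nasp, 42.1, 28.5 and 25.4 in hag2 nasp and 456, 151 and 677 in the wild type. The 3 msi2 msi3 nasp libraries were nearly equal, and those of the wild type were spread more than 4-fold. It was higher by 6.65 against hag2 nasp (adjusted p = 1.04e-08) and by 3.17 against the wild type. Of the other genes named for a high value against hag2 nasp, HAG2 is mutated in hag2 nasp, and AT1G68250, AT4G36600, AT1G54870 and AT2G42560 were all highest in mutant replicate 2. AT2G42560, which encodes a late embryogenesis abundant protein, held 82.8, 251 and 54.3 in the mutant and 25.1, 11.2 and 25.5 in hag2 nasp, a difference of 2.37 ± 0.61. Without that library the difference was 1.74 (adjusted p = 0.151). The call also ended with a pseudocount of 0.5, without the variance trend, and without msi2 msi3 nasp replicate 1 or hag2 nasp replicate 1 or 2.

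At the extremes, 21 genes were listed at 0 in every wild type library and at 10 or more in every mutant library, and 12 genes the reverse. The first set held F-box, kinase and late embryogenesis genes as well as HDG4, a homeodomain gene, and CRK38, a receptor-like kinase. The second held RL1 and RL6, small MYB-related genes, and BNQ3, which encodes a helix-loop-helix protein without a DNA-binding region. BNQ3 and SRO4 are neighbours on chromosome 3 and went together, BNQ3 at 43.3, 43.6 and 30.7 and SRO4 at 43.3, 47.9 and 38.6 in the wild type. AT2G17850, the gene next to AT2G17845 of that set, went from 209.5, 234 and 208 to 0, 0.946 and 0.991. No fold is given against a group listed at 0, since such a value can be a failed estimate.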

How the data were processed

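Whole seedlings were sequenced as 50-base single-end reads on a DNBSEQ instrument, per the labels' protocols. HISAT2, bcl2fastq, edgeR and the TAIR10 genome are named in the submitters' processing notes, without versions; the sources used here do not give the read counter or its strand setting. In the deposited table is a signal for each of 32548 genes, normalized by the authors to values that are not whole and sum to about the same total in each library, so precision in reads is unknown and no counting interval is given. Such values do not suit a count model, so limma 3.58.1 in R 4.3.3 was fitted to log2(value + 1) in all 15 libraries of the 12-day table, with a trend of variance on level, for the 24305 genes at 1 or more in at least 3 libraries. P-values were adjusted by the Benjamini-Hochberg method over all tested genes. The fit was also run on simulated data in which few genes changed, unlike here. That run does not show how the fit performs on these data.

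The members and gene lists were chosen with earlier results of these data known. Of 666 list members written, 648 were kept and 637 tested; values of some are not reported here. Genes were named by a rule: the mutated genes and their relatives, the largest changes with no overlap and a mean of at least 50, up to 3 called members of each role in its main direction and 1 in the other, with a mean of at least 10, and genes below 0.5 in 1 group and at 10 or more in the other. Members outside the rule, those that did not pass among them, were added to complete the roles after their values were seen. All 32548 identifiers matched RefSeq, and coordinates and sequences are from RefSeq's TAIR10.1. Alternatives were other pseudocounts, filters, scalings, weights and sample sets. Chosen after seeing the data were the list counts without single libraries and the gene values against hag2 nasp and nasp under these alternatives.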

Additional observations from a re-analysis of the deposited data

How the results depend on the processing

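Against the wild type, the count of called genes was 16242 and lay between 15392 and 16300 over the other fits at the same threshold, and was 14030 at an adjusted p below 0.01; leaving out 1 library gave 15392 to 15716. Against nasp it was 16269 and ranged from 15339 to 16319, with 14107 at 0.01. Against hag2 nasp the count of 1539 was less steady: 956 without the variance trend, 814 with only the 6 libraries compared, 614 at an adjusted p below 0.01, and 911 to 1861 when 1 library was left out, the lowest without msi2 msi3 nasp replicate 2 and the highest without msi2 msi3 nasp replicate 3. The cause was not tested. With the replicate block the counts were 16237, 1602 and 16284 against the wild type, hag2 nasp and nasp. Deviations of same-numbered libraries of the mutant and the wild type were barely correlated (-0.0021, -0.0112 and 0.0264). For the mutant and hag2 nasp the correlations were -0.0111, 0.0537 and 0.0956, beside -0.0895 to 0.0414 for pairs with other numbers. Such values cannot show whether libraries of 1 number were handled together, and the labels do not say. Of the 434 gene changes followed, 22 lost their call under some alternative, 4 gained one (AG, SHP1, HEMA1 and FLS1), and no called one changed sign. Uncalled genes crossed 0: over the fits without 1 library, LEC2 ranged from -0.446 to 0.40, RAD50 from -0.185 to 0.045, CHI-B from -0.160 to 0.028, GUN4 from -0.215 to 0.476, MRE11 from -0.030 to 0.189 and NAC044 against hag2 nasp from -0.133 to 0.005, and with quantile normalization MUTE stood at 0.017, MSI5 at 0.005, AHA2 at 0.119 and AT4G40030 at -0.045. The median of all genes moved between -0.009 and 0.018. The role median changed sign for origin licensing (-0.11, 0.04 with quantile normalization), for other silencing genes (-0.21, 0.03 with it) and for the seed master regulators (-0.02, up to 0.91 with only the 6 libraries compared). The sources used here give no read depth, so how far depth limits low genes is unknown.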

Other observations

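Small nucleolar RNAs, which guide the modification of ribosomal RNA, were nearly all higher in msi2 msi3 nasp than in the wild type where they passed the test. Of 173 tested snoRNA genes 80 rose (46.2%) and 2 fell, with a median log2 fold change of 0.85, whereas 34.7% of 22867 protein-coding genes rose and 34.4% fell. Of 22 snRNA genes, which encode spliceosomal RNAs, 7 rose (31.8%, below the protein-coding share) and none fell (by limma). Of 96 miRNA genes 8 rose (8.33%) and 22 fell (22.9%). Of 922 lncRNA genes 87 rose (9.44%) and 138 fell (15%), so both classes were called less often than protein-coding genes. How reads of RNAs that lie inside other genes were counted is not given in the sources used here, and the difference between the classes was not tested. By chromosome, between 32.4% and 35% of the tested genes rose.

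Among gene families taken by symbol, 15 of 29 GSTU genes, which encode detoxifying glutathione transferases, rose and 7 fell (median 0.39). Of 30 XTH genes, whose enzymes remodel wall xyloglucan, 12 rose and 16 fell (median -0.84). Some genes that went from off to on or from on to off had a neighbour that went with them, and others had one that went the other way. AT1G68250, listed at 0 in the wild type, lies by AT1G68240, which fell (a log2 change of -2.48). AT5G24215, listed at 0 in the mutant, lies by AT5G24210, which rose by 2.57. Over all genes 33.6% rose and 33.3% fell, and whether neighbours went together more often than that was not tested. AT2G18190, listed at 0 in the wild type, lies by AT2G18193, which went from 54.4, 51.4 and 70.4 to 950.1, 1001 and 1004 (4.06 ± 0.15). AT1G13608, listed at 0 in the mutant, lies by AT1G13609, which held 722, 649.8 and 666 in the wild type and 0.761, 6.45 and 30.8 in the mutant. These neighbours were picked after their values were seen.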
